A study of Arabidopsis thaliana with 16 samples.

Results

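The *aipp2-1/paipp2-1* double mutant was compared with each of its single mutants, *aipp2-1* and *paipp2-1*, to describe which genes differed in the loss of both PHD proteins from the loss of either alone. A gene was counted when its level in the double mutant differed in the same direction from each single mutant. Of 33048 genes in the table, 19895 had at least 1 FPKM (a fragment count scaled to transcript length and library depth) in at least 2 libraries and were tested. Of these, 835 genes (4.2% of those tested) were higher and 128 genes (0.643%) were lower in the double mutant than in both single mutants. The comparison used 2 libraries of the double mutant, 2 labelled *aipp2-1* and 2 labelled *paipp2-1*, that is 6 of the 16 libraries of the series.

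Every library came from poly(A) RNA of whole *Arabidopsis thaliana* seedlings in the Col-0 background, 12 days old and grown in 16 h light and 8 h dark at 23 °C on medium with 1% sucrose. The *aipp2-1* allele is a T-DNA insertion in *AIPP2*. The *paipp2-1* allele was made in *PAIPP2* by CRISPR/Cas9 editing, and the double mutant carries both. The other 10 libraries are 2 each of Col-0, *aipp3-1*, *cpl2-2*, *clf-81* and *lhp1-3*, and they helped only to estimate the spread, to set the filter on low values and to see where else the same genes changed. Nothing in the labels says that the 2 libraries of a genotype came from separate cultures. The p-values thus measure the spread between such libraries, pooled over the 8 genotypes, which may be technical.

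AIPP2 and PAIPP2 are paralogous proteins with a PHD finger, a small zinc-binding fold that reads the tail of histone H3. They work in a complex with AIPP3, whose BAH domain binds the Polycomb mark H3K27me3, and with CPL2, a phosphatase that acts on the tail of RNA polymerase II. In plants, H3K27me3 lies over genes that are kept silent in most seedling cells, many of them seed, flower and stress genes.

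The levels of the mutated genes were examined first, as a check of the labels. *AIPP2* (AT3G02890) had 1.38 and 1.36 FPKM in the double mutant, 3.67 and 4.21 in the libraries labelled *aipp2-1*, 5.13 and 5.24 in *paipp2-1* and 5.24 and 5.44 in Col-0. It was thus lower in the double mutant than in the libraries labelled *aipp2-1*, which should carry the same allele (log2 difference −1.24 ± 0.13 SE, adjusted p = 0.00011). Those libraries differed from Col-0 by −0.40 ± 0.13 (adjusted p = 1.0). The libraries labelled *aipp2-1* thus kept most of the *AIPP2* transcript, which goes against a loss of transcript under that label, and every direction drawn against these libraries carries this limit. A T-DNA insertion can leave transcript, and the presence of the allele was not tested. *PAIPP2* (AT5G16680) had 9.28 and 6.62 FPKM in the double mutant, 7.82 and 6.63 in *paipp2-1*, 11.9 and 13.7 in the libraries labelled *aipp2-1* and 10.8 and 11.1 in Col-0. An edited transcript can still be made and counted, so this level does not check the CRISPR allele.

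The remaining members of the list of BAH–PHD–CPL2 genes and partners were not called. *AIPP3*, *CPL2*, *CPL1*, *ASI1* and *EDM2* had log2 differences between −0.22 and 0.34 against the libraries labelled *aipp2-1*. Against *paipp2-1* the range was −0.04 to 0.29. None of the 14 tested Polycomb genes was called either, beside 4.2% called higher and 0.643% called lower of all genes tested. *EMF1* had the largest difference held against both single mutants, at 14.5 and 8.87 FPKM in the double mutant, 8.02 and 9.06 in the libraries labelled *aipp2-1* and 8.44 and 7.38 in *paipp2-1* (adjusted p = 0.13).

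Depth, read from the steps between low FPKM values, lay between 1.92e+07 and 2.5e+07 fragments over the 6 libraries, and replicate 1 of the double mutant was the shallowest. The 2 double-mutant libraries stood apart from each other. Their correlation across genes was 0.943, with 2176 genes (10.9%) at least 2-fold apart, whereas the pairs of the other genotypes had 0.987 to 0.992 and 0.744 to 1.73%. Photosynthesis genes summed to 3544 and 7034 FPKM in the double mutant, to 8297 to 8465 in the libraries labelled *aipp2-1* and to 10052 to 11354 in *paipp2-1*. Root markers summed to 104 to 107 FPKM in the double mutant, 161 to 170 in the libraries labelled *aipp2-1* and 130 to 132 in *paipp2-1*. The part of these marker levels in the results below was not tested, and in whole seedlings fewer cells of a type and less RNA per cell cannot be told apart.

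Differences were tested with limma on log2(FPKM + 0.5) in 1 fit of all 16 libraries, and a gene was called at a Benjamini-Hochberg adjusted p under 0.05 and at least a 2-fold difference of log values. Changes of genes at low FPKM are understated in this way. The fit takes 1 spread per gene from all 8 genotypes, although the double-mutant pair spread more than the others. The SE and p-values of that fit can thus understate the spread between the double-mutant libraries. The first contrast alone gave 1122 higher genes (5.64%) and 269 lower genes (1.35%) in the double mutant than in the libraries labelled *aipp2-1*. Against *paipp2-1*, 1010 genes (5.08%) were higher and 250 (1.26%) were lower. The 2 contrasts share the double-mutant libraries. In all 963 genes called against both, both double-mutant libraries lay outside the range of the 4 single-mutant libraries. Such separation was seen in 19.6% (above) and 17.5% (below) of all genes tested. The median log2 difference of the 835 genes was 1.65 against the libraries labelled *aipp2-1* and 1.59 against *paipp2-1*. Of the 835 genes, 200 rose at least 4-fold, 41 at least 8-fold and 5 at least 16-fold over both single mutants. Just inside the threshold, *AT1G61420* had log2 differences of 1.00 and 1.201, and just outside it *ELIP1* had 1.00 and 1.13, with the first of these marginally under 2-fold.

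**Figure D1:**
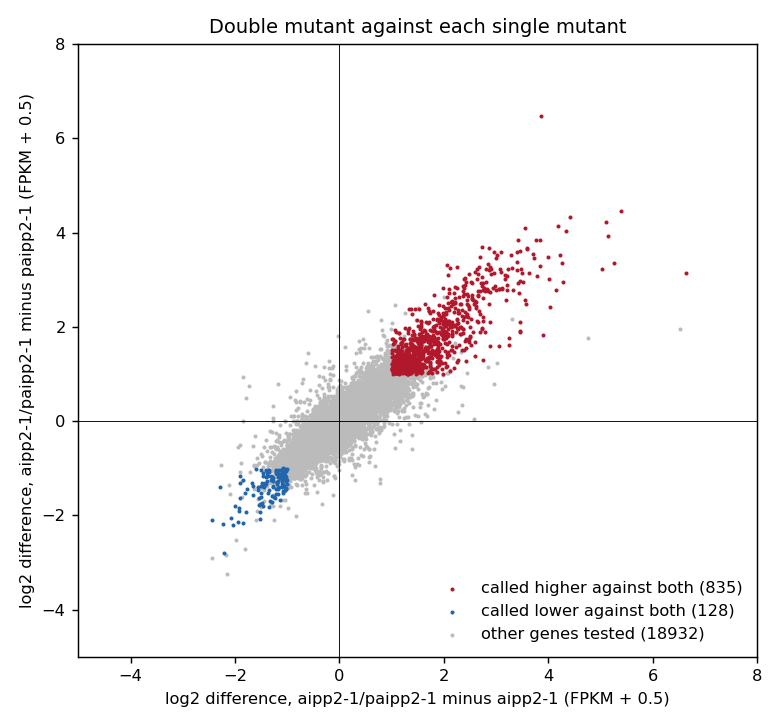
Each point is a gene tested, with its log2 difference (FPKM + 0.5) between the double mutant and the libraries labelled aipp2-1 on the x axis and between the double mutant and paipp2-1 on the y axis. The 835 genes called higher (red) spread farther from 0 than the 128 called lower (blue), and PR1 lies highest, at 6.47 against paipp2-1.

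The count changed with the fit and with the libraries in it. A genotype left with 1 library has no measured spread of its own, and the spread then comes from the other genotypes. Calls and p-values without a double-mutant library, here and below, thus do not measure the spread of the double mutant. A fit of the 6 libraries alone called 296 genes higher (1.49% of those tested) and 25 lower (0.126%), of which 293 and 25 were among those above. A fit that gave each genotype its own spread called 68 (0.342%) and 7 (0.0352%), every one of them among the 835 and 128. Without double-mutant replicate 1, 552 genes were higher and 70 lower (486 and 39 of them shared with all libraries), and without replicate 2, 1601 and 917 (788 and 118 shared). Leaving out 1 single-mutant library gave 545 to 717 higher and 53 to 89 lower genes, fewest without *paipp2-1* replicate 2. A 2-fold difference in every pair of a double-mutant and a single-mutant library, with no test, was met by 404 higher and 15 lower genes.

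Genes that rose in the double mutant were mostly at low levels elsewhere. Their median level, over the mean of the 2 libraries, was 9.14 FPKM in the double mutant, 1.97 in the libraries labelled *aipp2-1*, 2.14 in *paipp2-1* and 1.66 in Col-0. In 72.7% of them the single mutants averaged 5 FPKM or less, a level found in 33.3% of all genes tested. Choosing genes that are lower in the single mutants favours low values there, so the share of 72.7% is partly set by the choice. For 89 of the 835 genes the double-mutant libraries were needed to pass the filter of 1 FPKM, so that these genes had to differ; 746 passed without them. The 128 genes that fell had a median of 7.26 FPKM in the double mutant, 17.5 in the libraries labelled *aipp2-1*, 19.1 in *paipp2-1* and 17.58 in Col-0.

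*SEC31A* (AT1G18830), which encodes a coat protein of vesicles that leave the endoplasmic reticulum, had the largest value of the smaller of its 2 log2 differences. It had 33.2 and 22.9 FPKM in the double mutant, 0.14 and 0.21 in the libraries labelled *aipp2-1*, 0.74 and 0.83 in *paipp2-1* and 0.03 and 0.06 in Col-0. The double mutant was thus far above every single-mutant library, by 5.38 ± 0.20 and 4.45 ± 0.20 on the log2 scale (larger adjusted p = 1.1e-06). *HSP14.7* (AT5G47600), a small heat shock protein gene, had 42.7 and 67.7 FPKM in the double mutant, 1.18 and 0.89 in the libraries labelled *aipp2-1* and 2.86 and 3.34 in *paipp2-1*. Its differences were 5.15 ± 0.27 and 3.92 ± 0.27 (larger adjusted p = 1.4e-05). Both genes kept their call in the fit with a spread for each genotype.

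*HDG3* (AT2G32370), a homeodomain transcription factor gene known from the seed, had 10.1 and 7.2 FPKM in the double mutant. It was listed at 0 in both libraries labelled *aipp2-1* and at 0 and 0.03 in *paipp2-1*, and at 0 in both Col-0 libraries. Its fitted difference against *paipp2-1*, 4.13 ± 0.21, depends on the 0.5 FPKM added before taking logs. *HDG3* was also low in mutants of other members of the complex, with 0.13 and 0.15 FPKM in *aipp3-1* and 0.09 and 0.08 in *cpl2-2*. *SEC31A* by contrast reached 2.4 and 3.25 FPKM in *aipp3-1* and 16.13 and 15.71 in *cpl2-2*.

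Of the other genes among the 12 ranked by that smaller difference, *PR1* (AT2G14610), the marker of salicylic acid signalling, had 474 and 728 FPKM in the double mutant. It had 59.3 and 26.7 in the libraries labelled *aipp2-1* and 15.3 and 2.29 in *paipp2-1*. *PR1* lost its call in the fit of the 6 libraries (larger limma adjusted p = 0.065) and with a spread for each genotype (0.25). *BG3* (AT3G57240), a beta-1,3-glucanase gene, had 27.7 and 30.1 FPKM in the double mutant against 0.74 to 2.97 in the 4 single-mutant libraries. Receptor-like protein genes were *AtRLP23* (AT2G32680), which encodes an immune receptor, at 77.4 and 29.5 FPKM in the double mutant against 1.92 to 4.17 in the single mutants, and *AtRLP38* (AT3G23120), at 25.5 and 7.99 against 0.39 to 1.14. In both receptor genes replicate 1 of the double mutant was more than 2-fold above replicate 2, and both libraries lay above every single-mutant library. *LLP* (AT5G03350), a lectin-like gene, had 99.6 and 79.9 FPKM in the double mutant against 4.31 to 10.9 in the single mutants. The 12 were completed by *AT1G13470*, *AT4G33930*, *AT2G41470* and the unannotated transcript MSTRG.13910. Their smaller log2 differences lay between 3.77 and 4.34. Of the genes in this paragraph, only *AT4G33930* and *AT2G41470* were called with a spread for each genotype.

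**Figure D2:**
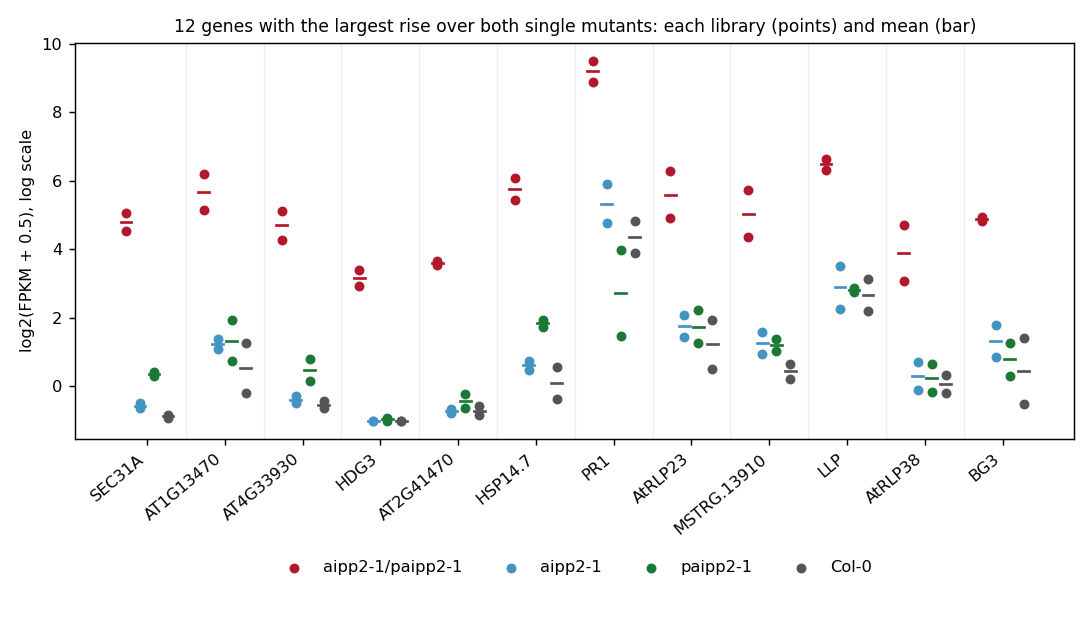
Level of the 12 called genes with the largest value of the smaller of the 2 log2 differences, as log2(FPKM + 0.5), with 1 point per library and a bar at the mean of 2 libraries (double mutant, libraries labelled aipp2-1, paipp2-1, Col-0, from left to right). The genes were chosen from those with both double-mutant libraries above all 4 single-mutant libraries, so that separation is set by the choice. The 2 double-mutant points also lie above the Col-0 points. In PR1 the double mutant had 474 FPKM or more and the single mutants 59.3 FPKM or less.

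The sequences in front of these genes were read from the RefSeq genome of build TAIR10.1, by locus tag, as the 250 bases that end just before the annotated gene start. The table holds no coordinates, and the build behind it is not given in the sources used here. The W-box core TTGAC, the letters that WRKY transcription factors bind, was searched on both strands. It was present in front of 413 of 678 genes called higher (60.9%), of 45 of 99 called lower (45.5%) and of 45.8% of all 13793 genes tested, counting only windows free of another annotated gene. The core TGACG, bound by TGA factors and sharing the letters TGAC with the W-box core, was present in 27.1% of the windows of genes called higher and in 18.3% of all. ACGTG, found in abscisic acid response elements, was present in 34.4% of those called higher, 24.2% of those called lower and 24.6% of all. GAGAGA was present in 14.6%, 13.1% and 16.3% of these groups, and the telobox AAACCCTA in 1.92%, 1.01% and 2.53%. Both motifs have been tied to Polycomb recruitment in plants. A match describes the letters only and is not a bound site. The windows of 4 genes that rose are shown to let the W-box core be seen, in capitals, 5′ to 3′ on the strand of the gene: *SEC31A* (chr1:6488983-6489232, plus strand), *HSP14.7* (chr5:19300504-19300753, minus strand), *SARD1* (chr1:27749249-27749498, minus strand) and *WRKY62* (chr5:352096-352345, minus strand).
SEC31A: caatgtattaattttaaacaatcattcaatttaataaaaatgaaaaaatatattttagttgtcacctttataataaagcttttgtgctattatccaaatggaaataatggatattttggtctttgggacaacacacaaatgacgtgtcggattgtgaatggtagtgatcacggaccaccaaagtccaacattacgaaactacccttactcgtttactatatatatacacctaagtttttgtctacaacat
HSP14.7: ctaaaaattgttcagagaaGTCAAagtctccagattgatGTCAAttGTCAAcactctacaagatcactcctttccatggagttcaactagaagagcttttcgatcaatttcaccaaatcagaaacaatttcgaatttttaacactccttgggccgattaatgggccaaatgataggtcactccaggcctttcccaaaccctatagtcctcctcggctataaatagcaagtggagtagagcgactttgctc
SARD1: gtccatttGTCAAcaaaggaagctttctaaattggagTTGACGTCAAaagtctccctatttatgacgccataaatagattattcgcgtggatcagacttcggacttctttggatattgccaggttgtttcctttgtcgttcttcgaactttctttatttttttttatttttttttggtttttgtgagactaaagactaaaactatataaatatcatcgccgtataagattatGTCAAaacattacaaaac
WRKY62: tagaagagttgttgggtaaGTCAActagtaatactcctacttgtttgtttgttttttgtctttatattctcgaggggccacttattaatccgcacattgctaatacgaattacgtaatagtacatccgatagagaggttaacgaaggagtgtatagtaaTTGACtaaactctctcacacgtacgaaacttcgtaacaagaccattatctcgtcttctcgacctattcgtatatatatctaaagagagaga
The window of *SARD1* held 4 matches and that of *HSP14.7* 3, and that of *WRKY62* held 2, whereas no match fell in that of *SEC31A*.

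Most salicylic acid genes rose. Of 16 genes for its synthesis and signalling, 12 were higher, beside 4.2% of all genes tested, and none was lower. The median log2 difference was 1.51 against the libraries labelled *aipp2-1* and 1.60 against *paipp2-1*, beside 0.01 and 0.04 over all genes tested. *SARD1* (AT1G73805), a transcription factor that switches on salicylic acid synthesis, had 53.0 and 18.4 FPKM in the double mutant, 1.89 and 2.99 in the libraries labelled *aipp2-1* and 2.51 and 1.72 in *paipp2-1*. It rose by 3.46 ± 0.38 and 3.62 ± 0.38 (larger adjusted p = 0.00016). The immune regulators *EDS1* and *PAD4* rose as well, with 48.5 and 24.1 FPKM and 39.7 and 19.8 FPKM in the double mutant, against at most 12.8 and 10.3 in any single-mutant library. *ALD1* and *FMO1*, which make the systemic signal N-hydroxypipecolic acid, had 4.05 and 3.55 and 5.12 and 7.75 FPKM in the double mutant, against at most 0.94 and 2.68 in the single mutants. *DLO1*, whose product hydroxylates salicylic acid, rose too, at 13.4 and 8.44 FPKM in the double mutant against 0.89 to 2.2 in the single mutants.

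*ICS1*, the main synthesis enzyme, did not reach 2-fold, at 26.8 and 13.6 FPKM in the double mutant, 8.05 and 12.3 in the libraries labelled *aipp2-1* and 10.2 and 9.04 in *paipp2-1*. *NPR1*, a receptor of the hormone, had 22.1 and 16.0 FPKM in the double mutant against 11.1 to 12.2 in the single mutants, also under 2-fold. Members of the list were higher in replicate 1 than in replicate 2 of the double mutant in 14 of 16 cases. The list had 8 higher genes without replicate 1, 13 without replicate 2, 4 in the fit of the 6 libraries and 3 with a spread for each genotype.

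Of 12 salicylic acid responsive defence genes, 9 rose and none fell, and all 12 had both double-mutant libraries above all single-mutant libraries. Over all genes tested, 4.2% were called higher and 19.6% had both double-mutant libraries above in this way. *PR1*, *PR2* and *PR5* rose, and *PR2*, a beta-1,3-glucanase gene, had 131 and 111 FPKM in the double mutant, 27.6 and 29.6 in the libraries labelled *aipp2-1* and 23.3 and 5.74 in *paipp2-1*, and it lost its call without double-mutant replicate 1 (adjusted p = 0.063). The WRKY factors *WRKY62*, *WRKY54*, *WRKY38*, *WRKY18* and *WRKY46* rose. *WRKY62* (AT5G01900) had 7.02 and 6.36 FPKM in the double mutant against 0.08 to 0.63 in the single mutants, and *WRKY54* (AT2G40750) had 26.9 and 11.4 against 2.38 to 3.91. *NIMIN1*, whose product binds NPR1, had 5.44 and 2.24 FPKM in the double mutant against 0 to 0.77. The 3 that were not called were *NIMIN2*, *WRKY70* and *WRKY53*. The list had 7 higher genes without replicate 1, 10 without replicate 2, 5 in the fit of the 6 libraries and 2 with a spread for each genotype.

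Genes called higher often lay next to each other. Of 822 that were placed on the 5 chromosomes, 198 (24.1%) had a neighbour that was also called higher, whereas 8.06% of all genes placed had such a neighbour. The longest run was 6 genes of the cysteine-rich receptor-like kinase family on chromosome 4, *CRK6* (AT4G23140) to *CRK11* (AT4G23190; chr4:12121369-12143858), followed by 5 genes in a second run from *CRK14* to *CRK19* (chr4:12154091-12174297). *CRK9*, named after its values were seen, had 40.9 and 15.3 FPKM in the double mutant, 2.74 and 4.04 in the libraries labelled *aipp2-1* and 3.94 and 2.29 in *paipp2-1*. A run of 4 on chromosome 1 held *FOX1*, *FOX2*, *FOX4* and *FOX5* (chr1:9126737-9143336), oxidase genes of pathogen-induced defence compounds. Members of 1 family in a row can share sequence, and how reads were split between them was not tested.

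Of 13 jasmonate and ethylene defence genes tested, 6 were higher, beside 4.2% of all genes tested, and none was lower. In the fit of the 6 libraries 3 were called higher, and with a spread for each genotype 0 were. The plant defensin genes *PDF1.2a*, *PDF1.2b* and *PDF1.2c*, which are near copies, led the list. *PDF1.2a* (AT5G44420) had 136 and 218 FPKM in the double mutant, 12.3 and 6.24 in the libraries labelled *aipp2-1* and 12.1 and 17.5 in *paipp2-1* (log2 differences 4.22 ± 0.56 and 3.52 ± 0.56, larger adjusted p = 0.0018). *LOX2*, a lipoxygenase gene of jasmonate synthesis, had 275 and 295 FPKM in the double mutant against 53.4 to 102 in the single mutants. The repressor genes *JAZ1* and *JAZ5* rose, whereas the storage protein genes *VSP1* and *VSP2* were not called, with log2 differences of 0.30 and −0.31 and of 0.45 and −0.07 against the libraries labelled *aipp2-1* and *paipp2-1*. Here 11 of 13 members were higher in replicate 2 than in replicate 1 of the double mutant, the opposite of the salicylic acid genes. *AOS* was listed at 0 in all 6 libraries, so a listed 0 is not taken as absence.

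Seed storage and oil body genes rose far and unevenly. Of 12 tested, 8 were higher in the double mutant, beside 4.2% of all genes tested, and none was lower. The list had medians of 3.76 against the libraries labelled *aipp2-1* and 2.19 against *paipp2-1*. *SESA1* (AT4G27140), a 2S albumin gene, had 14.8 and 36.1 FPKM in the double mutant, 0.27 and 0 in the libraries labelled *aipp2-1* and 4.88 and 0.51 in *paipp2-1*. *CRU3* (AT4G28520), a cruciferin gene, had 34.9 and 69.1 FPKM in the double mutant, was listed at 0 in both libraries labelled *aipp2-1* and had 15.9 and 1.42 in *paipp2-1*. The oil body gene *OLEO1* had 4.77 and 13.5 FPKM in the double mutant against 0 to 2.36. All 12 members were higher in replicate 2 than in replicate 1 of the double mutant. None of the 8 was called in the fit of the 6 libraries or with a spread for each genotype, while 10 were called without double-mutant replicate 1 and 7 without replicate 2.

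*paipp2-1* replicate 1 also had more seed storage transcript than the other single-mutant libraries. The list summed to 126 and 281 FPKM in the double mutant, to 3.45 and 5.61 in the libraries labelled *aipp2-1* and to 67.99 and 17.81 in *paipp2-1*. The cruciferin gene *CRA1* was not called against both, at 38.7 and 80.3 FPKM in the double mutant, 0.13 and 0.09 in the libraries labelled *aipp2-1* and 26.97 and 7.22 in *paipp2-1* (adjusted p = 0.082 against *paipp2-1*). Of the regulators that switch on seed maturation, *LEC1*, *LEC2*, *FUS3* and *ABI3* were at 0.39 FPKM or less in all 6 libraries. The wider list of 11 seed maturation regulators also holds genes with other roles, *DOG1*, *VAL1* and *VAL2* among them. None of its 5 tested members was called. The RY repeat CATGCA, bound by the seed B3 factors, was searched in the same windows and is shown in capitals for 2 of these genes, *SESA1* (chr4:13607079-13607328, plus strand) and *CRU3* (chr4:14087306-14087555, plus strand).
SESA1: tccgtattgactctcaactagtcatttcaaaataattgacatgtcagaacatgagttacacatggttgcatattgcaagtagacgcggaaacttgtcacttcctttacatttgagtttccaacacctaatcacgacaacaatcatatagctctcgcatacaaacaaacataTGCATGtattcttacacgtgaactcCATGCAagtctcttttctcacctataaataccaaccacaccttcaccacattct
CRU3: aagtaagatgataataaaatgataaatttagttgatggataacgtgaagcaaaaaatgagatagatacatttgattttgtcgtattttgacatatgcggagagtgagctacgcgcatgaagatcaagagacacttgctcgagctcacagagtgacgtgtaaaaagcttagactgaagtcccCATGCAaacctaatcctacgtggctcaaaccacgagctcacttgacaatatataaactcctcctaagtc
CATGCA was present in 10.9% of the windows of genes called higher, 11.1% of those called lower and 8.74% of all genes tested.

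**Figure D3:**
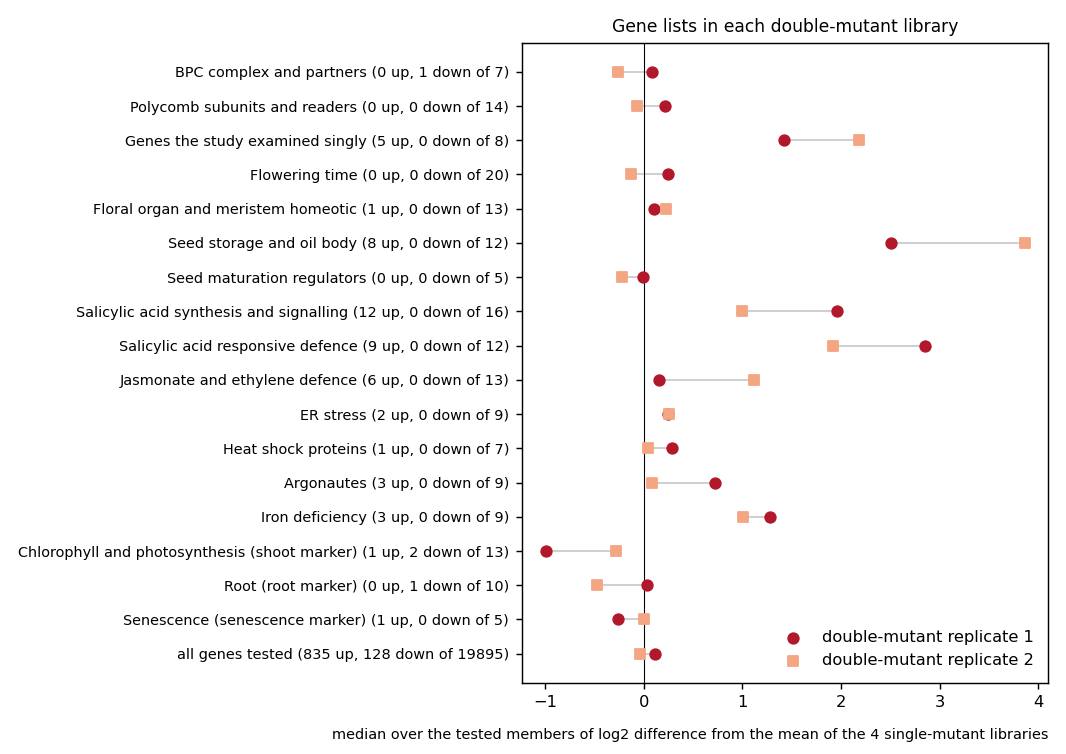
Median log2 difference of each gene list in double-mutant replicate 1 (circles) and replicate 2 (squares) from the mean of the 4 single-mutant libraries, with the counts of members called higher and lower among those tested beside each name. Salicylic acid lists lie farther right in replicate 1, seed storage and jasmonate lists in replicate 2.

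Single genes rose in lists of which most members were not called. *AGO5* (AT2G27880), an Argonaute of the germ line, had 4.34 and 4.58 FPKM in the double mutant, 0.04 and 0.03 in the libraries labelled *aipp2-1* and 0.26 and 0.18 in *paipp2-1*, a rise of 3.21 ± 0.19 and 2.79 ± 0.19 (larger adjusted p = 1.4e-05). *AGO9* had 2.56 and 1.51 FPKM in the double mutant against 0.13 to 0.29 in the single mutants, and *AGO3*, which was not called without double-mutant replicate 1, had 2.34 and 1.66 against 0.24 to 0.68. The other 6 Argonautes tested, among them *AGO1* and *AGO4*, were not called. *SUC5* (AT1G71890), a sucrose transporter gene of the endosperm, had 12.8 and 24.9 FPKM in the double mutant, 0.77 and 0.92 in the libraries labelled *aipp2-1* and 1.71 and 1.68 in *paipp2-1*. Its neighbour *AT1G71900* had 17.2 and 13.9 FPKM in the double mutant against 12.4 to 14.5, and *AT2G27900*, beside *AGO5*, had 25.7 and 19.4 against 19.5 to 23.7, and neither was called.

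Among the other genes that the study examined singly, *CHI* (AT2G43570), a chitinase gene, had 35.8 and 51.2 FPKM in the double mutant against 8.08 to 14.4 in the single mutants. *AT3G59480* had 6.82 and 14.2 FPKM in the double mutant, 3.17 and 2.04 in the libraries labelled *aipp2-1* and 2.67 and 3.94 in *paipp2-1*, and its call was lost without any 1 of 4 libraries, double-mutant replicate 2 among them (adjusted p = 0.054 to 0.13). Some of the genes that the study examined singly may have been picked on these samples, so that their 5 calls of 8 tested are not independent evidence.

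*SEC31A* and the chaperone gene *BIP3* were the 2 of 9 endoplasmic reticulum stress genes that rose. *BIP3* had 24.1 and 7.98 FPKM in the double mutant against 1.63 to 3.21 in the single mutants, and its call was lost without double-mutant replicate 1 (adjusted p = 0.066), without *aipp2-1* replicate 1 (0.076) and without *paipp2-1* replicate 2 (0.10). *BIP1* and *BIP2* had log2 differences from −0.12 to 0.35. *HSP14.7* was the only 1 of 7 heat shock protein genes tested that was called. Of 9 iron deficiency genes 3 rose, *IRT1*, *FRO2* and *BHLH101*, but none was called without double-mutant replicate 1, in the fit of the 6 libraries or with a spread for each genotype. For these short lists the share of all genes called higher was 4.2%. *SAG13* was the only senescence gene called of 5, at 28.2 and 59.6 FPKM in the double mutant against 2.55 to 4.63.

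Of 13 photosynthesis genes tested, *LHCA3* and *LHCA4* fell in the double mutant. The list had medians of −0.50 against the libraries labelled *aipp2-1* and −0.70 against *paipp2-1*. In the double mutant 7 members lay below all single-mutant libraries and 2 above them, beside 17.5% and 19.6% of all genes tested. Over all genes tested 0.643% were called lower, and no member was called lower in the fit of the 6 libraries. *LHCA4* had 706 and 1674 FPKM in the double mutant, 2350 and 2241 in the libraries labelled *aipp2-1* and 2837 and 3429 in *paipp2-1*. Replicate 1 of the double mutant was below replicate 2 in 10 of the 13, and without replicate 1 no member was called lower, whereas 6 were without replicate 2. One member of the list went the other way. *PORA* (AT5G54190), which encodes an enzyme of chlorophyll synthesis active in etiolated seedlings, had 52.6 and 66.8 FPKM in the double mutant, 1.13 and 1.59 in the libraries labelled *aipp2-1*, 5.72 and 5.97 in *paipp2-1* and 0.25 and 0.22 in Col-0. Its paralogs *PORB* and *PORC* were not called.

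None of the 20 flowering time genes tested was called against both single mutants with limma, while 1 was higher without double-mutant replicate 1, and 1 was higher and 2 were lower without replicate 2. The florigen gene *FT* had 1.66 and 4.04 FPKM in the double mutant, 1.48 and 0.9 in the libraries labelled *aipp2-1* and 1.33 and 1.66 in *paipp2-1* (larger adjusted p = 0.22), and without double-mutant replicate 1 it was called higher (adjusted p = 0.047). In the study's quantitative RT-PCR of 2-week-old seedlings, *FT* RNA was significantly above Col-0 in the double mutant but in neither single mutant. In the 12-day-old seedlings here, *FT* in the double mutant was 0.86 ± 0.37 above Col-0 on the log2 scale and was not called (limma adjusted p = 0.11). *SOC1*, which acts below *FT*, had 46.6 and 25.3 FPKM in the double mutant and 15.9 and 15.3 in the libraries labelled *aipp2-1*. *SOC1* had 19.6 and 21.2 in *paipp2-1*, against which it fell short of 2-fold. The study's RT-PCR found no significant change of *SOC1* RNA in any mutant tested. The flowering repressor *TEM2* had 18.0 and 37.2 FPKM in the double mutant against 44.5 to 53.5 in the single mutants, with log2 differences of −0.81 and −1.03. Of all genes tested, 4.2% were called higher and 0.643% lower, so the absence of calls among 20 flowering genes is near these shares. In the floral homeotic list *SEP4* alone of 13 was called, at 12.3 and 8.89 FPKM in the double mutant against 4.04 to 5.18, and it was not called without replicate 1.

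The single mutants differed from each other in few genes. Of all genes tested, 10 (0.0503%) were higher and 6 (0.0302%) were lower in *paipp2-1* than in the libraries labelled *aipp2-1*. In the limma fit of the 6 libraries these counts were 0 and 0 (88 and 57 at an unadjusted p under 0.05 and 2-fold in the fit of all libraries), with a spread for each genotype 70 and 45, and on leaving out 1 library 2 to 42 and 0 to 31. *PORA* was the only gene among the 835 for which the single mutants differed, by 1.78 ± 0.21 (adjusted p = 0.0074). *AT1G52100*, which encodes a jacalin-like lectin, had 38.5 and 46.3 FPKM in the double mutant, 23.1 and 25.1 in *paipp2-1* and 5.44 and 4.59 in the libraries labelled *aipp2-1*. The double mutant was 0.80 ± 0.12 on the log2 scale above *paipp2-1* and so under 2-fold. *POT5*, a potassium transporter gene, was at 5.13 and 3.4 FPKM in the double mutant, 5.14 and 8.37 in *paipp2-1* and 1.48 and 1.13 in the libraries labelled *aipp2-1*. *AT2G36630* went down in steps, with 9.67 and 11.8 FPKM in the double mutant, 21.1 and 20.3 in *paipp2-1* and 50.9 and 56.0 in the libraries labelled *aipp2-1*. *LEC* had 543 and 320 FPKM in the double mutant, and was lower in *paipp2-1*, at 122 and 133, than in the libraries labelled *aipp2-1*, at 326 and 322. *NRT2.6*, a nitrate transporter gene, had 2.75 and 4.18 FPKM in the double mutant, 2.73 and 0.8 in *paipp2-1* and 8.3 and 22.0 in the libraries labelled *aipp2-1*. Of the genes called higher against 1 single mutant only, 287 were called against the libraries labelled *aipp2-1* and 175 against *paipp2-1*, and the single mutants themselves differed in 9 and 1 of these.

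**Figure D4:**
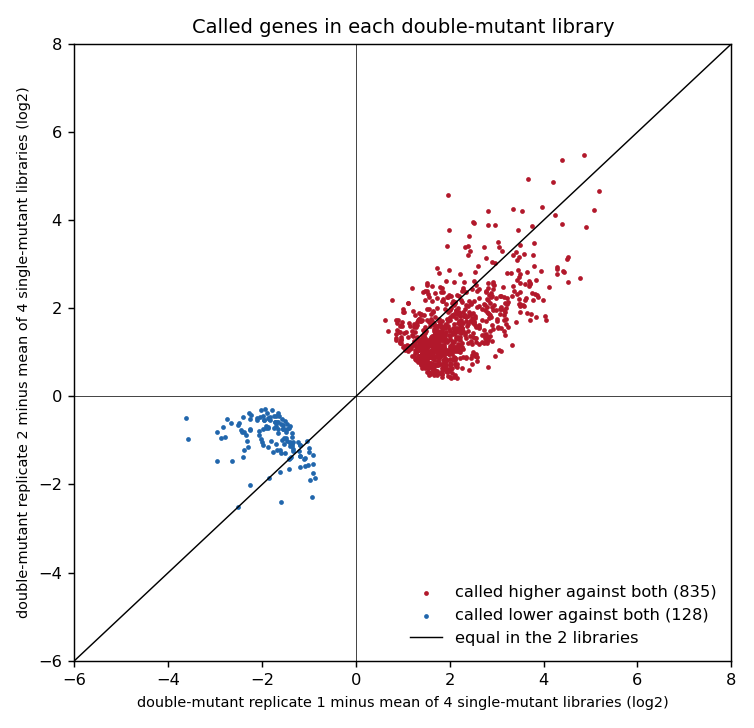
Log2 difference of each called gene from the mean of the 4 single-mutant libraries, in double-mutant replicate 1 on the x axis and in replicate 2 on the y axis, with a line where both are equal. Of the 835 genes called higher (red), 679 lie below the line, that is with the larger rise in replicate 1, and 105 of the 128 called lower (blue) fell further in replicate 1.

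The 2 double-mutant libraries shared the direction of each called gene but not its size. A call needs a 2-fold difference in the mean of these 2 libraries, so the shared direction is largely set by the choice. Replicate 1 was above replicate 2 in 679 of the 835 genes called higher, by at least 2-fold in 206, and replicate 2 was above replicate 1 in 155, by at least 2-fold in 19. Among the genes called lower, replicate 1 was the lower library in 105 and at least 2-fold lower in 59.

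Genes that fell in the double mutant had smaller changes, with medians of −1.28 against the libraries labelled *aipp2-1* and −1.31 against *paipp2-1*, and 5 fell at least 4-fold. *AT1G67865* had 3.4 and 10.5 FPKM in the double mutant, 31.3 and 29.7 in the libraries labelled *aipp2-1* and 27.4 and 31.0 in *paipp2-1* (log2 differences −2.24 ± 0.35 and −2.18 ± 0.35, larger adjusted p = 0.0020). *BGLU21*, a beta-glucosidase gene, had 2.81 and 12.1 FPKM in the double mutant against 19.3 to 29.0 in the single mutants. *AT1G04800* and *AT1G35516* had 7.72 and 36.0 FPKM and 2.44 and 25.3 FPKM in the double mutant, against at least 59.1 and 33.6 in the single mutants, so that replicate 1 held most of their fall. The other 4 of the 8 largest falls were short transcripts, *AT3G09595* (82 bases), *AT1G04217* (144), *AT3G07715* (64) and the small nucleolar RNA gene *SNOR95* (135), at which few fragments were counted. *AT3G09595* was listed at 0 in both double-mutant libraries and had 1.71 to 3.26 FPKM in the single mutants, where 3 fragments correspond to 1.91 FPKM in the shallower double-mutant library.

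With a spread for each genotype, 7 genes were lower, and 6 of these were named after their values were seen. *PIN7*, an auxin efflux carrier gene, had 16.0 and 18.9 FPKM in the double mutant, 49.0 and 47.1 in the libraries labelled *aipp2-1* and 44.3 and 46.6 in *paipp2-1*, with both double-mutant libraries well below. *GLK2*, a transcription factor gene of chloroplast development, had 22.3 and 47.0 FPKM in the double mutant against 86.5 to 96.5 in the single mutants. *CYP90A1*, a brassinosteroid synthesis gene, had 19.8 and 62.2 FPKM in the double mutant against 104 to 113. *BBX28*, *IAA27* and *TIP1-2* completed these, with *AT1G67865*. In the root list *EXPA18*, an expansin gene of root hairs, was the only member called, at 2.13 and 7.03 FPKM in the double mutant against 10.4 to 13.7, and it was not called without replicate 1.

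Whether the same genes changed in other mutants was asked in libraries that set none of the differences above, each mutant against Col-0. Of the 835 genes, 286 (34.3%) were higher in *aipp3-1*, against 3.14% of all genes tested. In *cpl2-2*, 306 (36.6%) were higher, against 2.71%. In the Polycomb mutants, 259 (31.0%) were higher in *clf-81*, against 5.98%, and 102 (12.2%) in *lhp1-3*, against 2.8%. These 4 comparisons share the Col-0 libraries. They also come from the same fit as the calls against the single mutants, with the same filter and 1 spread per gene. A gene of small spread is called more easily in both, so these shares are not wholly independent evidence. Of the 68 genes called with a spread for each genotype, and with the calls in the other mutants left as above, 32 (47.1%) were higher in *aipp3-1* and 36 (52.9%) in *cpl2-2*, while 19 (27.9%) were higher in *clf-81* and 10 (14.71%) in *lhp1-3*.

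Single genes differed in this. *PORA* had 40.3 and 31.5 FPKM in *aipp3-1* and 44.4 and 36.2 in *cpl2-2*, but only 0.7 and 0.47 in *clf-81* libraries, and *lhp1-3* had 0.58 and 0.25, against 0.25 and 0.22 in Col-0. *HSP14.7* likewise reached 18.7 and 17.5 FPKM in *aipp3-1* and 32.9 and 34.4 in *cpl2-2*, and 0.68 to 1.06 in *clf-81* and *lhp1-3*, against 0.28 and 0.97 in Col-0. *SARD1* had 10.9 and 7.68 FPKM in *aipp3-1*, 11.1 and 12.7 in *cpl2-2*, and it had 3.9 and 3.59 in *clf-81* while *lhp1-3* had 0.66 and 0.58, against 1.78 and 2.01 in Col-0. *AGO5* was called in *cpl2-2*, at 1.34 and 1.19 FPKM, and not in *aipp3-1*, at 0.25 and 0.26, against 0.08 and 0.04 in Col-0. Both *aipp3-1* libraries lay above Col-0, and the 0.5 FPKM added before taking logs shrinks differences at such levels. The study counts *AGO5* among the genes raised in common in mutants of the complex.

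**Figure D5:**
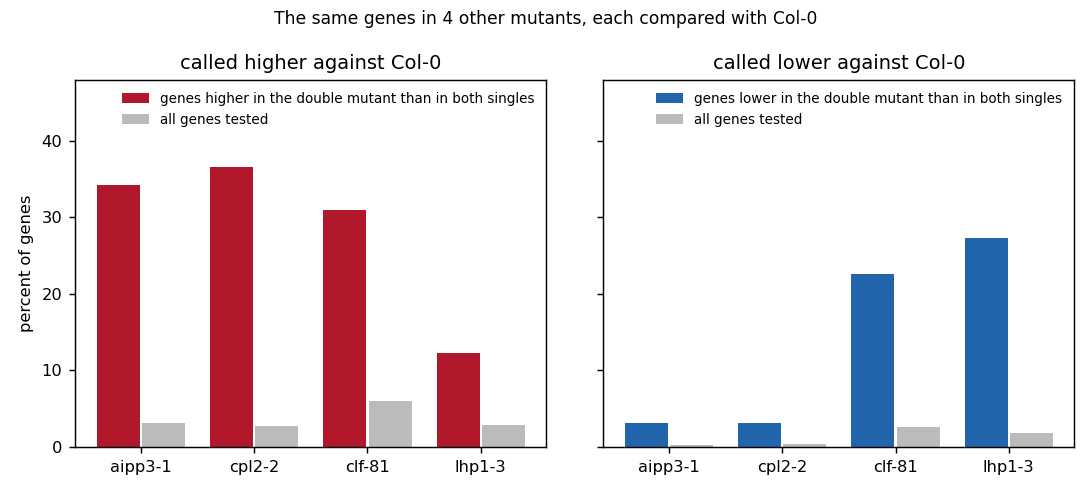
Percent of the 835 genes called higher (left, red) and of the 128 called lower (right, blue) that were called in the same direction in aipp3-1, cpl2-2, clf-81 and lhp1-3 against Col-0, with the percent of all genes tested in grey. The higher genes reach 36.6% in cpl2-2, and the lower genes 27.3% in lhp1-3.

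Of the genes that fell, larger shares were called lower in the Polycomb mutants, where more of all genes tested were called lower as well. Of the 128 genes, 35 (27.3%) were lower in *lhp1-3*, against 1.82% of all genes tested, and 29 (22.7%) in *clf-81*, against 2.55%. In *aipp3-1* and *cpl2-2*, 4 each (3.13%) were lower, against 0.251% and 0.332%. Their median level was 9.48 FPKM in *clf-81* and 7.67 in *lhp1-3*, against 17.58 in Col-0, while it was 17.2 in *aipp3-1* and 15.8 in *cpl2-2*.

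The single mutants and the double mutant are given beside Col-0 only as values, since these comparisons share libraries with the choice of genes. Against Col-0, 1282 genes were higher in the double mutant (6.44%), 1 in the libraries labelled *aipp2-1* (0.00503%) and 26 in *paipp2-1* (0.131%), while 254 (1.28%), 0 and 7 (0.0352%) were lower. Of the 26, 7 were among the 835, *PORA*, *SEC31A* and *HSP14.7* included. *PORA* was 3.11 above Col-0 in *paipp2-1* on the log2 scale and 1.33 above it in the libraries labelled *aipp2-1*. *SEC31A* was 1.24 above Col-0 in *paipp2-1* and 0.31 above it in the libraries labelled *aipp2-1*, and *HSP14.7* was 1.75 and 0.51 above it in these mutants. In all 835 genes both Col-0 libraries lay on the same side of the double mutant as the single mutants. The share over all genes tested was not counted. These genes were chosen against single mutants that differed little from Col-0, so this separation is not independent evidence.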

How the data were processed

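RNA was measured by poly(A) mRNA-seq of whole seedlings, with 150 bp paired reads. The authors deposited FPKM values for 33048 genes in 16 libraries, 2 for each of 8 genotypes. Their processing notes name TopHat, Bowtie and RSEM, and reads were trimmed with SeqPrep and Sickle. Versions and the genome build of the mRNA-seq are not given in the sources used here. Of the IDs, 32548 were found in the RefSeq annotation of TAIR10.1, which gave coordinates and promoter windows.

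Values were taken as log2(FPKM + 0.5). A gene was kept where 2 or more libraries reached 1 FPKM, and a linear model with moderated, trended variances (limma 3.58.1, R 4.3.3) was fitted to all 16 libraries, with 8 residual degrees of freedom and no block. Called genes had a Benjamini-Hochberg adjusted p under 0.05 and at least a 2-fold difference. "Against both" needs a call in the same direction against each single mutant. Depth was read from the steps between low FPKM values, of which 82.0 to 93.3% lay within 0.1 of a whole fragment. This covers counting precision only.

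Members and gene lists were chosen with earlier results of these data known. Genes named were the mutated genes and their complex, and the genes examined singly by the study. The 12 largest rises and 8 largest falls by the smaller of the 2 log2 differences were also named. These were taken from called genes with both double-mutant libraries outside the range of the 4 single-mutant libraries. Up to 4 called members of each list and the 3 largest differences between the single mutants in each direction were named too. All other names were chosen after their values were seen. Alternatives were other pseudocounts, filters, scalings, spreads, call rules, a replicate block and leaving out each of the 6 libraries. The sequence of 1 promoter window is not reported here.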

Additional observations from a re-analysis of the deposited data

How the results depend on the processing

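Counts are given as higher and lower genes. In the fit of the 6 libraries, the double mutant had 541 and 89 called genes against the libraries labelled *aipp2-1*, 355 and 40 against *paipp2-1* and 296 and 25 against both, and *paipp2-1* had 0 and 0 against the libraries labelled *aipp2-1*, where all libraries gave 10 and 6, and 88 and 57 had an unadjusted p under 0.05 and at least a 2-fold difference. With a spread for each genotype these counts were 144 and 18, 81 and 11, 68 and 7, and 70 and 45. With no fold limit they were 2547 and 2168, 2255 and 1495, 1732 and 1062, and 13 for the lower genes of the single mutants. With 2-fold in every pair of libraries and no test they were 610 and 69, 522 and 44, 404 and 15, and 37 and 20. At 5 FPKM or more, 714 were higher against the libraries labelled *aipp2-1* and 549 against both. Quantile normalization called 407 lower against the libraries labelled *aipp2-1* and 204 against both, so that 77.6% of calls were higher, beside 86.7% as reported, 85.2% under median-ratio scaling and 63.6% without double-mutant replicate 2. It called 3 genes lower between the single mutants, and so did the table without a filter. Against the mean of the 4 single-mutant libraries, 263 were lower. The cause of these shifts was not tested.

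Leaving out 1 library gave 818 to 2088 higher and 160 to 1167 lower genes against the libraries labelled *aipp2-1*, 632 to 1972 and 93 to 1156 against *paipp2-1*, 545 to 1601 and 53 to 917 against both, and 2 to 42 and 0 to 31 between the single mutants. *AIPP2* ranged from −1.33 to −1.16 and *PAIPP2* from −0.11 to 0.34. In each of these fits the genotype left with 1 library has no measured spread. The percent of the genes higher against both that were higher in *aipp3-1*, *cpl2-2*, *clf-81* and *lhp1-3* ranged from 21.5 to 48.7, 22.0 to 53.3, 21.2 to 38.4 and 9.87 to 15.9. These percents were 37.7, 40.1, 38.3 and 16.4 at 5 FPKM or more, and 48.5, 54.4, 27.9 and 14.71 with a spread for each genotype in these mutants as well. In *aipp3-1* they were 28.9 at a pseudocount of 1, 28.8 with no filter and 26.2 under quantile normalization. In *cpl2-2* they were 40.2 and 32.4 at pseudocounts of 0.1 and 1, 31.0 with no filter, 30.7 with no fold limit and 43.1 with 2-fold in every pair. In *clf-81* and *lhp1-3* they were 35.2 and 15.3 at a pseudocount of 0.1, and 37.9 and 25.9 with no fold limit.

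*AIPP2* kept −1.24 but lost its call with a spread for each genotype (limma adjusted p = 0.067). Small, uncalled differences changed sign, namely *AIPP3* (−0.051 under quantile normalization and −0.026 under median-ratio scaling) and *ASI1* (−0.073 under quantile normalization), and, on leaving out 1 library, *AIPP3* (−0.096 to 0.065), *ASI1* (−0.18 to 0.56), *PAIPP2*, *EDM2* (−0.19 to 0.066), *AT2G27900* (−0.084 to 0.17) and *LEC* (−0.016 to 0.75). Over 68 named genes, 987 of 1147 values under the alternatives kept direction and side of the threshold, 142 lost the call, 6 gained it and 12 changed sign.

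No pairing by replicate number was seen. Deviations of same-numbered libraries correlated by −0.11 (double mutant and *aipp2-1*), 0.03 (double mutant and *paipp2-1*) and −0.08 (the single mutants). Each value rests on 1 pair of libraries per genotype, which cannot decide whether libraries were prepared in matched batches. With the replicate block 825 and 123 genes were called against both and 3 were lower between the single mutants. A crossed block for the *aipp2-1* libraries, chosen after seeing the data, called 1112 and 269 against them and 824 and 128 against both.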
